A study of Schmidtea mediterranea with 8 samples.

Results

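In the cephalic ganglia (CNS) of the planarian *Schmidtea mediterranea*, 27 of 38633 assembled contigs were chosen because their level was lower after inhibition of *hedgehog* (*hh*) while it stayed near the control level after inhibition of *patched* (*ptc*). The choice used the mean normalized reads of each group. A contig was kept if it averaged at least 100 normalized reads over *hh(RNAi)* and control CNS, if log2((*hh(RNAi)* mean + 1)/(control mean + 1)) was -1 or below, and if the same value for *ptc(RNAi)* lay between -0.58 and 0.58. Neural panel and tissue marker genes and the glial genes *if-1* and *cali* were left out by name. Because the 27 contigs were selected on these values, every *hh(RNAi)* and *ptc(RNAi)* value given for them is a description and was not tested.

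The series holds polyadenylated RNA of 4 groups, each with 2 libraries. The CNS groups were dissected from sexual S2F1L3F2 animals after 12 feedings of bacteria expressing dsRNA against *hh*, *ptc* or *unc-22*, a *Caenorhabditis elegans* gene that planarians lack and that served as the control. The head group was made of whole head fragments from asexual CIW4 animals after 6 feedings of *unc-22* dsRNA. Feedings were 4 days apart in all groups. The CNS animals were briefly treated with acid before dissection, and the CNS libraries were made from less total RNA than the head libraries. The CNS and head libraries therefore differ in strain, number of feedings, dissection and amount of RNA as well as in tissue. These differences cannot be told apart. The libraries were prepared in duplicate, and no source says that the 2 libraries of a group came from separate animals, so p-values measure the spread between libraries, which may be technical. The 2 libraries of a group are called a and b here, a being the one with the larger scaling factor, and these names pair nothing across groups.

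Hedgehog is a secreted ligand that binds the membrane receptor Patched. In its absence Patched holds the membrane protein Smoothened inactive. Ligand binding frees Smoothened, and transcription factors of the Gli family then change the transcription of target genes, of which *ptc* is one in many animals. RNAi of *hh* removes the ligand, whereas RNAi of *ptc* removes the inhibitor, so the 2 treatments act on the pathway in opposite directions. In planarians *hh* is expressed in neurons of the medial CNS.

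Between 11479783 and 18914547 reads per library fell on contigs, with a median of 12327233. In *hh(RNAi)* CNS the *hh* contig had 38.5 and 80.0 normalized reads, against 242 and 211 in control CNS, and *ptc* had 189 and 198 in *ptc(RNAi)* CNS, against 288 and 292 in control CNS. Both targets were thus lower in the libraries labelled with their RNAi. The neural panel of 70 genes summed to between 262160 and 332900 in the 6 CNS libraries and to 31538 and 33458 in the head libraries on a scale common to all 8 libraries, with no gene of the panel at 0 in any library. On the same scale *smedwi-1*, which marks planarian neoblasts, the stem cells, had 776 and 787 normalized reads in *hh(RNAi)* CNS and 4530 and 2929 in *ptc(RNAi)* CNS, against 1443 and 1894 in control CNS. The other neoblast marker, *smedwi-2*, had 5366 and 4739 in *hh(RNAi)* CNS and 8806 and 8754 in *ptc(RNAi)* CNS, against 5284 and 7112 in control CNS, so that its *hh(RNAi)* and control libraries overlapped. The part of these differences in the values below was not tested. In bulk RNA, fewer cells of a type and less RNA per cell cannot be told apart.

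Of 12153 contigs averaging at least 100 normalized reads, 133 were at or below -1 in *hh(RNAi)*, a background of 1.09%. Among these 133, *ptc(RNAi)* was within the window for 30, at or above 0.58 for 37 and at or below -0.58 for 66. Of the 30, 3 were left out by name, namely *if-1*, *cali* and *hh* itself. In the opposite direction 51 contigs were at or above 1 in *hh(RNAi)*, and 14 of them were within the *ptc(RNAi)* window. The 27 contigs averaged from 101 to 4829 normalized reads with a median of 182, below the median of 381 over all 12153, and 19 of them averaged under 300. Their *hh(RNAi)* values ran from -5.19 to -1.01 with a median of -1.26, and 4 were below -2. In *ptc(RNAi)* 15 were above 0 and 12 below, from -0.57 to 0.52.

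**Figure D1:**
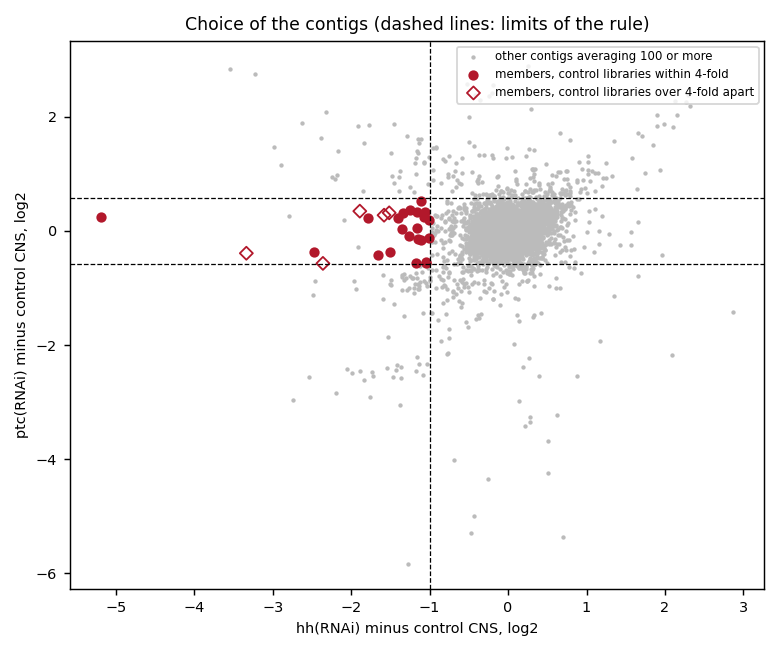
The log2 difference of *hh(RNAi)* minus control CNS (horizontal axis) is plotted against that of *ptc(RNAi)* minus control CNS (vertical axis) for contigs averaging 100 or more normalized reads, with the 27 chosen contigs in red and the limits of the rule dashed. The 27 have a median of -1.26 on the horizontal axis, and 1 of them stands apart at -5.19.

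The deposited tables do not pair contig IDs with gene names, and the study's gene lists do so for a few contigs. In the study's annotated list of Hh-dependent transcripts 1 of the 27, dd_Smed_v4_1206_0_1, is present, with a mouse hematopoietic prostaglandin D synthase as its best match. That list required a significant change of more than 2-fold and a minimum level corrected for contig length, limits unlike those of the rule. Absence from it is therefore no result about the other 26, which are given by ID alone. The contigs fall in 27 different assembly components, the number after v4 in an ID, and 2 of these components hold another contig. They are the components of dd_Smed_v4_22809_0_1 and dd_Smed_v4_7063_0_1.

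The contig with the lowest *hh(RNAi)* value was dd_Smed_v4_49327_0_1. It had 8.24 and 11.7 normalized reads in *hh(RNAi)* CNS and 446 and 498 in *ptc(RNAi)* CNS, against 334 and 464 in control CNS, a log2 difference of -5.19 for *hh(RNAi)*. All 4 *ptc(RNAi)* and control libraries were far above both *hh(RNAi)* libraries, and with any 1 library left out the *hh(RNAi)* value stayed between -5.44 and -4.93. It was also far higher in ganglia than in head fragments. On the scale of the CNS and head table it had 401 and 557 normalized reads in control CNS, against 4.43 and 7.92 in head fragments. For comparison, the glial genes left out by name had *hh(RNAi)* values of -2.09 for *if-1*, an intermediate filament gene, and -2.80 for *cali*, and *ptc(RNAi)* values of 0.18 and 0.26.

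The most abundant of the 27 was the annotated contig dd_Smed_v4_1206_0_1. In mammals hematopoietic prostaglandin D synthase is a glutathione transferase that makes prostaglandin D. It had 2998 and 3000.15 normalized reads in *hh(RNAi)* CNS and 5922 and 6221 in *ptc(RNAi)* CNS, against 5760 and 7560 in control CNS. Both *hh(RNAi)* libraries were nearly equal and lay below the other 4, with a log2 difference of -1.15. Next in abundance were dd_Smed_v4_1653_0_1 and dd_Smed_v4_8476_0_1. dd_Smed_v4_1653_0_1 had 1024 and 1181 normalized reads in *hh(RNAi)* CNS and 3496 and 3224 in *ptc(RNAi)* CNS, against 2191 and 3041 in control CNS. dd_Smed_v4_8476_0_1 had 780 and 1194 in *hh(RNAi)* CNS and 3293 and 2850 in *ptc(RNAi)* CNS, against 1894 and 3334 in control CNS. In both, the *hh(RNAi)* libraries lay below the 4 others, while *ptc(RNAi)* and control libraries overlapped for dd_Smed_v4_8476_0_1 but not for dd_Smed_v4_1653_0_1.

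**Figure D2:**
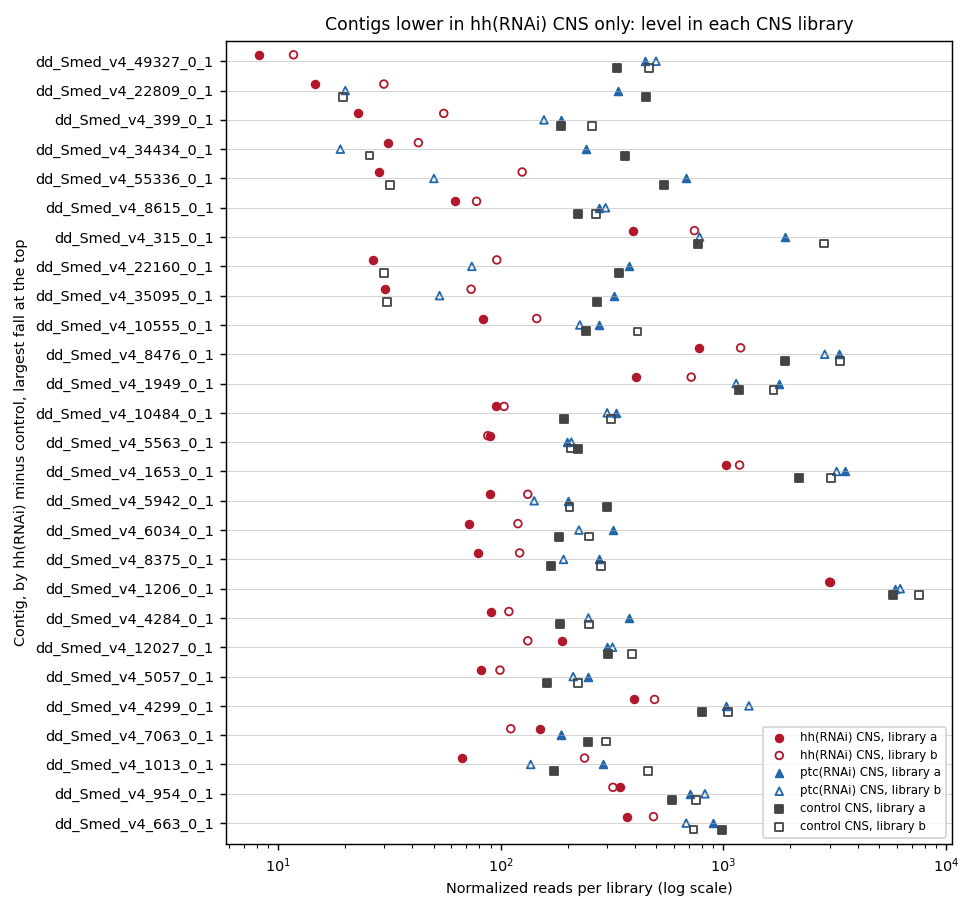
Normalized reads (log axis) of the 27 contigs in each *hh(RNAi)*, *ptc(RNAi)* and control CNS library, with filled symbols for library a and open symbols for library b. For 21 contigs both *hh(RNAi)* symbols lie left of all others, and 5 contigs have 1 control and 1 *ptc(RNAi)* symbol far to the right and the other of each group among the *hh(RNAi)* symbols or left of them.

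Both *hh(RNAi)* libraries were below both control libraries for 21 of the 27, against 15.7% of all 12153 contigs, and below both control and both *ptc(RNAi)* libraries for 21, against 7.46%. The rule used these libraries, so the counts describe the choice. The 6 contigs whose groups overlapped were dd_Smed_v4_22809_0_1, dd_Smed_v4_34434_0_1, dd_Smed_v4_55336_0_1, dd_Smed_v4_22160_0_1, dd_Smed_v4_35095_0_1 and dd_Smed_v4_1013_0_1. With any 1 library left out, 5 contigs stayed at or below -1 in *hh(RNAi)*, namely dd_Smed_v4_49327_0_1, dd_Smed_v4_399_0_1, dd_Smed_v4_8615_0_1, dd_Smed_v4_10555_0_1 and dd_Smed_v4_5563_0_1. All of these except dd_Smed_v4_10555_0_1 also stayed within the *ptc(RNAi)* window.

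The first 5 of the overlapping contigs shared a pattern that was noticed after their values were seen. For each of them control library a was more than 4-fold above control library b, and *ptc(RNAi)* library a more than 4-fold above *ptc(RNAi)* library b. dd_Smed_v4_22809_0_1 had 14.65 and 29.9 normalized reads in *hh(RNAi)* CNS and 338 and 20.0 in *ptc(RNAi)* CNS, against 448 and 19.55 in control CNS. dd_Smed_v4_55336_0_1 had 28.4 and 125 in *hh(RNAi)* CNS and 682 and 50.1 in *ptc(RNAi)* CNS, against 541 and 31.9 in control CNS. The low control library thus lay among the *hh(RNAi)* libraries. dd_Smed_v4_34434_0_1 had 31.1 and 42.65 in *hh(RNAi)* CNS and 242 and 19.03 in *ptc(RNAi)* CNS, against 362 and 25.7 in control CNS. dd_Smed_v4_22160_0_1 had 26.6 and 95.9 in *hh(RNAi)* CNS and 377 and 74.1 in *ptc(RNAi)* CNS, against 341 and 29.8 in control CNS. dd_Smed_v4_35095_0_1 had 30.2 and 73.6 in *hh(RNAi)* CNS and 323 and 53.1 in *ptc(RNAi)* CNS, against 270 and 30.9 in control CNS. In the head libraries none of the 5 was above 12.54 normalized reads.

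Membership of these 5 contigs therefore rested on control library a. Without it their log2 differences in *hh(RNAi)* were 0.18 for dd_Smed_v4_22809_0_1, 0.50 for dd_Smed_v4_34434_0_1, 1.24 for dd_Smed_v4_55336_0_1, 1.01 for dd_Smed_v4_22160_0_1 and 0.73 for dd_Smed_v4_35095_0_1. Summed on the scale of all 8 libraries, the 5 reached 134 and 390 in *hh(RNAi)* CNS and 2053 and 220 in *ptc(RNAi)* CNS, against 2073 and 146 in control CNS. Among all 12153 contigs, 8 had both pairs of libraries uneven in this way, and 7 of these 8 were at or below -1 in *hh(RNAi)*. The 8 include the 5 contigs above, which the rule required to be at or below -1. In all 8 the high control library also raised the control mean from which the *hh(RNAi)* value is taken. The count of 7 is therefore a description and no separate evidence. Contigs with control library a and *ptc(RNAi)* library b the higher were not counted. The second contig of component 22809, dd_Smed_v4_22809_0_2, averaged too few reads to be a member and showed the same order, with 6.41 and 14.9 in *hh(RNAi)* CNS and 75.9 and 3.01 in *ptc(RNAi)* CNS, against 101 and 7.20 in control CNS.

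**Figure D3:**
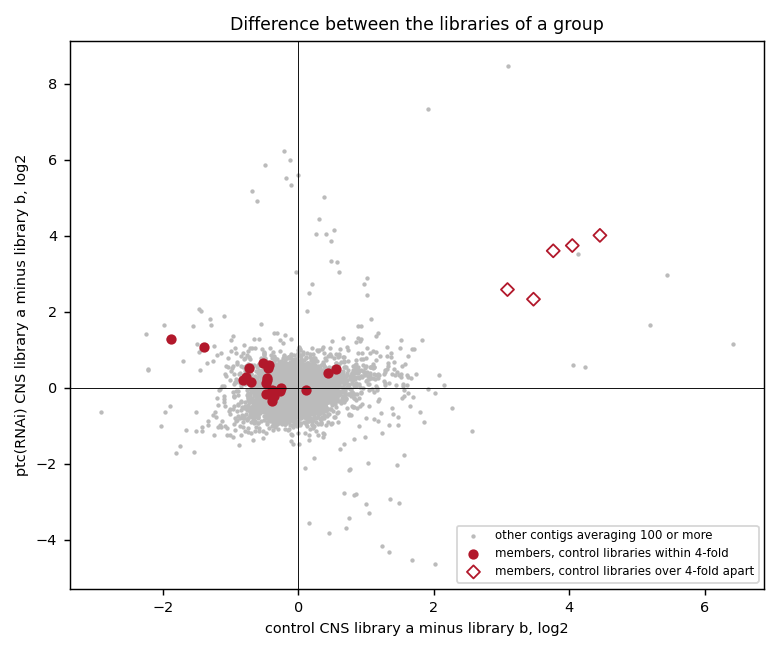
The log2 difference of library a minus library b in control CNS (horizontal axis) and in *ptc(RNAi)* CNS (vertical axis), for the 27 contigs in red and the other contigs averaging 100 or more in grey. The 5 contigs drawn as open diamonds lie at the upper right, with library a the higher in both groups.

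The rule used the means of the CNS libraries, and a mean can pass its limits through 1 extreme library, so the spread of the 27 contigs within CNS groups is a description of the choice. The median absolute log2 difference between the libraries of a group was 0.50 in *hh(RNAi)* CNS, against 0.25 over all 12153 contigs, and 0.35 in *ptc(RNAi)* CNS, against 0.18. In control CNS it was 0.47, against 0.14. In the head libraries, which the rule did not use, it was 0.084, against 0.081.

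Control CNS was then set against control head, the contrast that asks where a transcript is enriched. This contrast did not choose the contigs, although the same control CNS libraries entered the rule. The rule favours contigs whose control CNS libraries happen to be high, which moves these differences toward higher in CNS. The calls and p-values of contigs higher in CNS are therefore not independent of the choice. Of the 27, 26 passed the minimum average of 100 over CNS and head, and dd_Smed_v4_35095_0_1 did not. By limma with Benjamini-Hochberg adjustment and a change of more than 2-fold, 9 of the 26 were called higher in CNS and 6 lower, and 11 were not called. Over all 13494 contigs tested, 32.7% were called higher and 22.2% lower. Of the 26, 6 had a head mean under 100 and passed the minimum only through their CNS level, so they had to be higher in CNS to be tested. They account for 4 of the 9 calls, and the count of 9 is therefore not read against the background. The 20 contigs above the minimum in both groups held 5 called higher and 6 called lower. No share was taken over all contigs above the minimum in both groups, so these counts have no matching background.

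**Figure D4:**
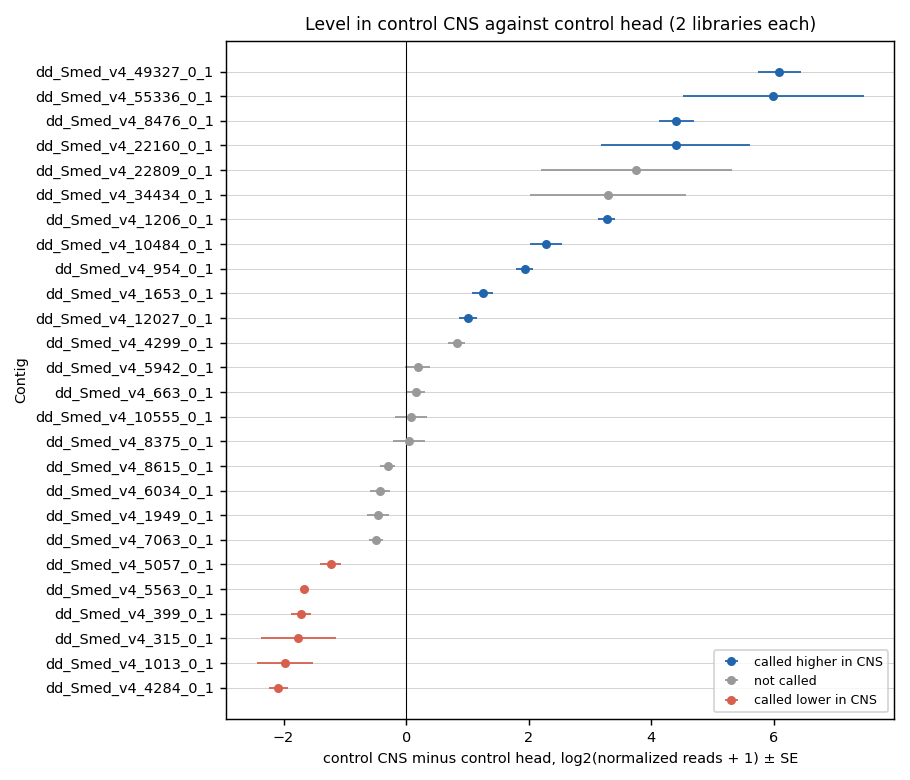
Log2 difference of control CNS minus control head with its standard error for the 26 contigs tested (2 libraries per group). The contigs called higher in CNS are blue, those called lower are orange and those not called grey, and the values run from 6.09 for dd_Smed_v4_49327_0_1 to -2.09 for dd_Smed_v4_4284_0_1.

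Among the contigs called higher in CNS, dd_Smed_v4_49327_0_1 averaged 479 ± 110 normalized reads in control CNS, against 6.17 ± 2.47 in head (SD, n = 2 each), a log2 difference of 6.09 ± 0.36 (SE). It is 1 of the 6 that passed the minimum only through CNS, so its call adds nothing to these values. dd_Smed_v4_8476_0_1 averaged 3138 ± 1218 in control CNS and 141 ± 13.03 in head (SD, n = 2 each), a log2 difference of 4.41 ± 0.28 (SE; limma, Benjamini-Hochberg adjusted p = 0.000135). The annotated dd_Smed_v4_1206_0_1 averaged 7997 ± 1517 in control CNS and 820 ± 13.8 in head (SD, n = 2 each), a 9.75-fold higher level (limma, adjusted p = 5.85e-05). dd_Smed_v4_10484_0_1, dd_Smed_v4_954_0_1, dd_Smed_v4_1653_0_1 and dd_Smed_v4_12027_0_1 were also called, at log2 differences of 2.28, 1.94, 1.25 and 1.01. Of these dd_Smed_v4_10484_0_1, with a mean of 59.9 in head, passed the minimum only through CNS. The call of dd_Smed_v4_12027_0_1 was lost without control library b, at 0.83, and without head library b, at 0.96. In all of these the lower CNS library was above the higher head library.

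The other contigs called higher belong to the group of 5 with uneven control libraries. dd_Smed_v4_55336_0_1 had 651 and 38.3 normalized reads in control CNS, against 0.738 and 2.64 in head, and dd_Smed_v4_22160_0_1 had 410 and 35.8, against 4.43 and 5.28. Their log2 differences were 5.99 ± 1.48 and 4.40 ± 1.22 (SE), and both passed the minimum only through CNS. Neither reached the minimum average without control library a. The call of dd_Smed_v4_22160_0_1 was lost without either head library, and that of dd_Smed_v4_55336_0_1 without head library a. dd_Smed_v4_22809_0_1 and dd_Smed_v4_34434_0_1 had log2 differences of 3.76 and 3.29 and were not called, and they also passed only through CNS (limma, Benjamini-Hochberg adjusted p = 0.0745 and 0.0613). Without the 5 uneven contigs, 7 of 22 were called higher and 6 lower. These still include dd_Smed_v4_49327_0_1 and dd_Smed_v4_10484_0_1, which passed only through CNS, so the counts are not read against the background.

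The 6 contigs called lower in CNS were dd_Smed_v4_4284_0_1, dd_Smed_v4_1013_0_1, dd_Smed_v4_315_0_1, dd_Smed_v4_399_0_1, dd_Smed_v4_5563_0_1 and dd_Smed_v4_5057_0_1, with head levels from 2.32 to 4.22 times those in CNS. dd_Smed_v4_4284_0_1 averaged 260 ± 54.2 normalized reads in control CNS, against 1099 ± 10.9 in head (SD, n = 2 each), a log2 difference of -2.09 ± 0.16 (SE; limma, Benjamini-Hochberg adjusted p = 0.000209). dd_Smed_v4_399_0_1 averaged 267 ± 59.5 in control CNS and 866 ± 7.498 in head (SD, n = 2 each), a log2 difference of -1.71 ± 0.17 (SE; limma, adjusted p = 0.000481). For dd_Smed_v4_315_0_1 the control CNS libraries were far apart, at 924 and 3388 against 5913 and 6051 in head, and its call (adjusted p = 0.0454 by limma) was lost without control library a or either head library. The call of dd_Smed_v4_1013_0_1 was lost without head library a, at an adjusted p of 0.0543 by limma.

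Across the RNAi groups these 6 contigs were unlike each other. dd_Smed_v4_399_0_1 had 22.9 and 55.4 normalized reads in *hh(RNAi)* CNS and 187 and 156 in *ptc(RNAi)* CNS, against 187 and 257 in control CNS. dd_Smed_v4_5563_0_1 was the most even, with 89.7 and 87.4 in *hh(RNAi)* CNS and 198 and 207 in *ptc(RNAi)* CNS, against 222 and 206 in control CNS. For both, the *hh(RNAi)* libraries lay below the 4 others. dd_Smed_v4_315_0_1 had 393 and 741 in *hh(RNAi)* CNS and 1891 and 781 in *ptc(RNAi)* CNS, against 768 and 2824 in control CNS. dd_Smed_v4_1013_0_1 had 66.8 and 238 in *hh(RNAi)* CNS and 289 and 136 in *ptc(RNAi)* CNS, against 174 and 458 in control CNS. In these 2 contigs the libraries of each group were far apart. For dd_Smed_v4_315_0_1 the *hh(RNAi)* value was -2.31 without control library a and -0.44 without control library b. The last 2 of the 6 were steadier: dd_Smed_v4_4284_0_1 had 90.6 and 109 in *hh(RNAi)* CNS and 376 and 247 in *ptc(RNAi)* CNS, against 185 and 248.99 in control CNS. dd_Smed_v4_5057_0_1 had 81.5 and 99.2 in *hh(RNAi)* CNS and 245 and 211 in *ptc(RNAi)* CNS, against 161 and 222 in control CNS.

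Markers of tissues other than CNS were set beside these contigs. On the scale of all 8 libraries *agat-1*, a marker of the parenchyma in the study's list, had 367 and 996 normalized reads in *hh(RNAi)* CNS and 831 and 394 in *ptc(RNAi)* CNS, against 803 and 1257 in control CNS. Collagen, a muscle marker, had 437 and 627 in *hh(RNAi)* CNS and 667 and 806 in *ptc(RNAi)* CNS, against 508 and 849 in control CNS. The 21 markers whose listed expression does not name the CNS summed to 16841 and 19889 in *hh(RNAi)* CNS. They summed to 26880 and 24716 in *ptc(RNAi)* CNS, against 18971 and 23654 in control CNS. This total also holds *netrin-2*, listed for the neuropil, which is part of the CNS. *netrin-2* had 1598 and 1106 in *hh(RNAi)* CNS and 1047 and 1273 in control CNS, against 221 and 225 in head. The total is therefore not one of tissues outside the CNS alone. Among the 21, the 2 neoblast markers summed to 13336 and 11684 in *ptc(RNAi)* CNS, against 6726.5 and 9006.5 in control CNS. In *hh(RNAi)* CNS they summed to 6142.5 and 5526.5. *mag-1*, a marker of the body edge, had 210 and 955 in *hh(RNAi)* CNS, against 451 and 474 in control CNS. In *ptc(RNAi)* CNS it had 1274 and 1158. The gut sums of *hh(RNAi)* and control CNS overlapped. The total of the 21 thus does not describe each tissue. None of the 21 was at 0 in every library. Their part in the levels of the contigs was not tested.

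The remaining 9 contigs were above the minimum in both groups and were not called. dd_Smed_v4_4299_0_1, dd_Smed_v4_5942_0_1, dd_Smed_v4_663_0_1, dd_Smed_v4_10555_0_1, dd_Smed_v4_8375_0_1, dd_Smed_v4_8615_0_1, dd_Smed_v4_6034_0_1, dd_Smed_v4_1949_0_1 and dd_Smed_v4_7063_0_1 had log2 differences from 0.82 to -0.49. The first and the last of these had adjusted p-values of 0.00392 and 0.0114 by limma and missed only the 2-fold limit, at a level 1.79-fold higher in CNS and a level 1.40-fold higher in head. Within this group dd_Smed_v4_8615_0_1 had 62.3 and 77.8 normalized reads in *hh(RNAi)* CNS and 276 and 296 in *ptc(RNAi)* CNS, against 221 and 269 in control CNS. dd_Smed_v4_1949_0_1 had 403 and 716 in *hh(RNAi)* CNS and 1774 and 1140 in *ptc(RNAi)* CNS, against 1173 and 1679 in control CNS. In both the *hh(RNAi)* libraries lay below the 4 others, by a wider gap in dd_Smed_v4_8615_0_1.

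Of the contigs called higher in CNS, dd_Smed_v4_10484_0_1 had 95.2 and 103 normalized reads in *hh(RNAi)* CNS and 330.9 and 301 in *ptc(RNAi)* CNS, against 193 and 313 in control CNS. dd_Smed_v4_954_0_1 had 342 and 319 in *hh(RNAi)* CNS and 710.4 and 825 in *ptc(RNAi)* CNS, against 587 and 751 in control CNS. dd_Smed_v4_12027_0_1 had 188 and 132 in *hh(RNAi)* CNS and 299 and 318 in *ptc(RNAi)* CNS, against 302 and 388 in control CNS. In all 3 both *hh(RNAi)* libraries were below both control libraries, and the *ptc(RNAi)* and control libraries overlapped.

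Among the contigs not called, dd_Smed_v4_10555_0_1 had 83.3 and 145 normalized reads in *hh(RNAi)* CNS and 275 and 226 in *ptc(RNAi)* CNS, against 241 and 412 in control CNS. dd_Smed_v4_4299_0_1 had 398 and 490.4 in *hh(RNAi)* CNS and 1024 and 1301 in *ptc(RNAi)* CNS, against 800.1 and 1050.5 in control CNS. dd_Smed_v4_6034_0_1 had 72.3 and 119 in *hh(RNAi)* CNS and 320.2 and 224 in *ptc(RNAi)* CNS, against 183 and 248.99 in control CNS. All 3 had *hh(RNAi)* libraries below the 4 others, with log2 differences of -1.51, -1.06 and -1.16. The other 3 of this kind follow. dd_Smed_v4_8375_0_1 had 78.7 and 121.5 in *hh(RNAi)* CNS and 276 and 191 in *ptc(RNAi)* CNS, against 169 and 282 in control CNS. dd_Smed_v4_5942_0_1 had 89.7 and 132 in *hh(RNAi)* CNS and 200.5 and 141 in *ptc(RNAi)* CNS, against 300.3 and 204 in control CNS. dd_Smed_v4_663_0_1 had 367 and 485 in *hh(RNAi)* CNS and 896 and 680.2 in *ptc(RNAi)* CNS, against 990 and 734 in control CNS. For dd_Smed_v4_5942_0_1 the lower *ptc(RNAi)* library lay close to the higher *hh(RNAi)* library.

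The contig dd_Smed_v4_7063_0_1 shares its component number with dd_Smed_v4_7063_0_2, the contig of *ptc*, and was singled out for this after its values were seen. It had 150.15 and 111 normalized reads in *hh(RNAi)* CNS and 187 and 187 in *ptc(RNAi)* CNS, against 247 and 296 in control CNS. The *ptc* contig had 156 and 110 in *hh(RNAi)* CNS, against 286 and 293 in control CNS. Their log2 differences were -1.05 and -1.12 in *hh(RNAi)* and -0.54 and -0.58 in *ptc(RNAi)*, so that both lay next to the window's limit, dd_Smed_v4_7063_0_1 inside it. The sequences of the contigs were not used here, and whether they come from 1 gene was not tested. Of the other pathway genes, *smoothened*, *sufu*, which encodes an inhibitor of Gli proteins, and *gli-1* had *hh(RNAi)* values of 0.03, 0.01 and -0.01 and *ptc(RNAi)* values of -0.27, 0.28 and 0.20. *gli-3* averaged 62.2 normalized reads, and *gli-2* had reads in 1 *hh(RNAi)* library and in no control or *ptc(RNAi)* CNS library.

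At the limits of the rule, dd_Smed_v4_663_0_1 was just inside at an *hh(RNAi)* value of -1.01, and dd_Smed_v4_13542_0_1 just outside at -0.99. On the high side of the *ptc(RNAi)* window dd_Smed_v4_4284_0_1 was inside at 0.52 and dd_Smed_v4_3517_0_1 outside at 0.69. On the low side dd_Smed_v4_34434_0_1 was inside at -0.57 and, of contigs not left out by name, dd_Smed_v4_775_0_1 was outside at -0.59. The *ptc* contig, which is left out by name, was nearer to the limit, outside at -0.5804. By average level dd_Smed_v4_35095_0_1 was inside at 101 and dd_Smed_v4_8959_0_1 outside at 99.7.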

How the data were processed

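The authors trimmed reads, mapped them with Bowtie2 to the Dresden transcriptome assembly with the best single alignment reported, counted them with SAMtools and compared groups with DESeq2 (versions not given in the sources used here). The deposited signal columns hold the mean normalized reads of the 2 libraries of each group, with no correction for contig length, so levels were not compared between contigs per length. The deposited fold changes, p-values and adjusted p-values are the authors' own comparisons and were not used. The row that names no contig held no reads.

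In each mean, a read of either library adds its own fixed step. Solving each mean for 2 whole numbers gave the reads of each library for 100% of the means, and control CNS reads solved from the *hh(RNAi)* and *ptc(RNAi)* tables were identical for every contig. Control CNS reads solved from the CNS and head table equalled them for 38622 of 38634 rows. In that table more than 1 pair was possible for 124 head means, for which the most even pair was taken, and for 53 control CNS means, for which the reads from the *hh(RNAi)* table were used. In the CNS and head table the solved reads showed that the columns run against the order in its name. The labels' replicate numbers could not be tied to the solved libraries. Levels are in the scale of the table of each comparison unless all 8 libraries are named.

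Control CNS and control head were compared with limma 3.58.1 in R 4.3.3 (trend, no robust option) on log2(normalized reads + 1), which understates changes of low contigs, for contigs averaging at least 100 over both conditions. The Benjamini-Hochberg adjustment covered all contigs tested, and calls required an adjusted p below 0.05 with a change of over 2-fold. With 2 libraries against 2, an exact permutation test of 1 contig cannot give a two-sided p below 0.333. Scripts were tested on simulated data. The contigs named were the annotated contig, the 5 lowest in *hh(RNAi)*, the 5 most abundant, the 3 highest and 3 lowest in CNS over head, those next to the limits and those sharing an assembly component, and the other members are named to account for all 27. The 27 contigs and the gene lists were chosen with earlier results of these data known. Alternatives were other minimums, constants, limits, scalings and CNS groups, and leaving out each library. Python 3.11.15, numpy 2.4.6, pandas 2.3.3 and matplotlib 3.10.9 were used for the other steps.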

Additional observations from a re-analysis of the deposited data

How the results depend on the processing

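The number of contigs chosen depended on the limits. It was 42 with a minimum of 50, 4 with a minimum of 1000, 645 with none, 10 with an *hh(RNAi)* limit of -1.5, and 12 or 67 with a *ptc(RNAi)* window of 0.3 or 1. It was 26 with an added constant of 10 and 26 with upper quartile scaling, chosen after seeing the data, and 25 of the 27 were among the chosen in each. Leaving out 1 CNS library gave 14 to 68 contigs, of which between 9 (without control library b) and 23 (without *hh(RNAi)* or *ptc(RNAi)* library b) were among the 27. With a minimum of 1000, 5 contigs could be tested in control CNS over head, 3 were called, all higher, and 0 lower. Over all 2663 contigs tested at this minimum, 707 were called higher and 600 lower. dd_Smed_v4_1206_0_1 and dd_Smed_v4_8476_0_1, with head means of 820 and 141, passed it only through CNS. The 3 calls are therefore not read against that background. dd_Smed_v4_315_0_1 was still tested there and lost its call, at an adjusted p of 0.0653 by limma. Leaving out 1 library left 1 library in a group, so no count of calls is given for it.

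With *hh(RNAi)* CNS in place of control CNS, 2 contigs were called higher and 14 lower of 20 tested. This contrast holds the libraries chosen for low values. Over all 13055 contigs tested there, 3563 were called higher and 3157 lower. Contigs high in control CNS, such as dd_Smed_v4_49327_0_1 and dd_Smed_v4_10484_0_1, were not tested there, so the count of 14 is not read against that background. The median log2 difference of the 20 was -1.65, against 0.17 for the 26 tested with control CNS and -0.19 for the 24 tested with *ptc(RNAi)* CNS. It was -0.15 with control CNS relative to the median of all contigs and from -0.075 to 0.47 without 1 library. The *hh(RNAi)* CNS values that changed sign were -1.59 for dd_Smed_v4_10555_0_1, -0.26 for dd_Smed_v4_12027_0_1, -0.14 for dd_Smed_v4_1653_0_1, -0.38 for dd_Smed_v4_4299_0_1, -1.14 for dd_Smed_v4_5942_0_1, -1.01 for dd_Smed_v4_663_0_1 and -1.27 for dd_Smed_v4_8375_0_1. With *ptc(RNAi)* CNS, dd_Smed_v4_10555_0_1, dd_Smed_v4_5942_0_1, dd_Smed_v4_663_0_1 and dd_Smed_v4_8375_0_1, none of them called in control CNS, were at -0.43, -0.53, -0.14 and -0.057, and relative to the median of all contigs at -0.24, -0.13, -0.16 and -0.28. Without 1 library they ran from -0.30 to 0.46, -0.09025 to 0.47, -0.06016 to 0.3745 and -0.33 to 0.41. Without 1 CNS library the *hh(RNAi)* values ran from -4.27 to 0.18 for dd_Smed_v4_22809_0_1, -3.26 to 0.50 for dd_Smed_v4_34434_0_1, -3.29 to 1.24 for dd_Smed_v4_55336_0_1, -2.76 to 1.01 for dd_Smed_v4_22160_0_1 and -2.36 to 0.73 for dd_Smed_v4_35095_0_1. Without control library b, dd_Smed_v4_22809_0_1 and dd_Smed_v4_34434_0_1 were at 5.99 and 5.18. These values rest on 1 CNS library, and both contigs passed the minimum only through CNS. Without control library a dd_Smed_v4_4299_0_1 was at 1.02, also with 1 CNS library. The call of dd_Smed_v4_12027_0_1 was also lost with a constant of 10, at 0.98, and with *ptc(RNAi)* CNS or relative to the median of all contigs, at 0.69 in each, and that of dd_Smed_v4_1653_0_1 relative to the median, at 0.93. The call of dd_Smed_v4_315_0_1 was lost with no minimum also. The causes were not tested.

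No paired analysis was possible because the solved libraries carry no replicate numbers. The planned edgeR, DESeq2 and TMM alternatives were not run: the deposited columns are group means, and the reads of each library, although solved for, were not taken as deposited counts. Under upper quartile scaling both *hh(RNAi)* libraries were below both control libraries for 21 of the 27, the same count as before. With 2 libraries a group, most of the 27 at low levels and no contig lengths, small differences could not be told from library spread.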
